A study of Mus musculus with 6 samples.

Results

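Bulk RNA-Seq of the mouse ductus arteriosus (DA) at E17.5 was examined for 10 genes that mark endothelial cells or build the junctions between them. The genes were *Cldn5*, *Cdh5*, *Pecam1*, *Esam*, *Cd34*, *Emcn*, *Vwf*, *Erg*, *Sox17*, and *Sox18*, and each had 1 entry among the 23997 genes of the deposited table. These 10 genes were chosen by name after results of the same WT and KO libraries were known, and the question set for them was whether *Cldn5* and *Cd34* were higher together with the general endothelial genes or apart from them. The FPKM values (fragments mapped to a gene, divided by transcript length and by library size) of the 2 groups therefore took part in the choice, and every difference between the groups is given for these genes as a description. Where counts from the fit over all genes include them, the counts are not a test of these genes.

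The data comprised 3 libraries labelled WT, from wild type littermates, and 3 labelled KO, from *Prdm6* fl/fl *SM22-Cre* mice, in which Cre-recombinase is expressed in smooth muscle cells (SMCs) and acts on both floxed copies of *Prdm6*. All 6 libraries were from untreated C57BL/6 embryos at E17.5, and all held RNA of the whole DA, flash frozen after dissection. The labels do not say whether each library was 1 embryo or a pool, so the spread between libraries may be partly technical. Endothelial cells are not the labelled target of *SM22-Cre*. In RNA of a whole vessel, fewer or more cells of a type and less or more RNA per cell cannot be told apart.

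Endothelial cells line the lumen of every vessel and are held together by tight junctions and adherens junctions, which set how much fluid and how many cells cross the wall. Transcription factors of the ETS and SOXF families switch on the genes of endothelial identity during development. The DA is the fetal artery between the pulmonary artery and the aorta that closes after birth, and its wall consists mainly of SMCs under a single endothelial layer.

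How deeply the libraries were sequenced is unknown. The spacing of the lowest FPKM values gave relative depths of 0.927 to 1.19 (WT library 1 set to 1). These depths are rough, since they rest on 7 of 127 low genes in WT library 2 and on 22 to 30 in the others compared. Upper quartiles ran from 10.4 to 10.8 FPKM. Genes listed at 0 ran from 8338 in KO library 2 to 11886 in WT library 2. The 12 SMC genes of a marker list had a summed FPKM between 3597 and 7281 in WT and between 1286 and 3332 in KO, and all 12 had a negative log2 difference. By sum, heart muscle transcripts were highest in WT library 1 and KO library 2. A list of 12 such genes summed to 72.0, 1620, and 653 FPKM in WT libraries 0, 1, and 2. In the KO libraries of the same numbers the sums were 252, 176, and 1888. *Myh6* was at 357 in WT library 1 and 281 in KO library 2, against at most 25.0 elsewhere. WT library 2 also held these transcripts, with *Tnnt2* at 142 FPKM beside 140 in KO library 2. KO library 0 held both *Xist*, at 81.0 FPKM, and the Y-linked *Ddx3y*, at 26.4 FPKM, whereas each of the other 5 libraries held 1 of these transcripts at 20.1 FPKM or more and the other below 0.4. The FPKM of whole-gene *Prdm6* was 41.7, 48.4, and 19.8 in WT and 48.6, 27.1, and 15.4 in KO, and it does not test the deletion, since the sources used here do not say which part of the gene is removed.

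Sequence before the transcription start was held by the RefSeq promoter table (GRCm38.p6) for 4 of the 10 genes, *Cldn5*, *Cd34*, *Emcn*, and *Erg*. It is shown for the pair of genes the question is about and for *Emcn*, whose groups overlapped, as the 250 bases before the start. Capitals mark GGAA or its reverse complement TTCC, the core that ETS factors such as *Erg* recognize, and CCAAT or its reverse complement ATTGG. The *Cldn5* stretch lies at chr16:18776597-18776846, plus strand. The *Cd34* stretch lies at chr1:194938571-194938820, plus strand. The *Emcn* stretch lies at chr3:137340828-137341077, plus strand.
Cldn5: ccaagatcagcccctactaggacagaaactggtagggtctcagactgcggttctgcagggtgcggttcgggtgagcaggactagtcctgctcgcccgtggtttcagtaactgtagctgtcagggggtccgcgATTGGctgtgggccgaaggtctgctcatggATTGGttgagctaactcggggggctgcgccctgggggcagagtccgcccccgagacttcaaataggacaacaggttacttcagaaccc
Cd34: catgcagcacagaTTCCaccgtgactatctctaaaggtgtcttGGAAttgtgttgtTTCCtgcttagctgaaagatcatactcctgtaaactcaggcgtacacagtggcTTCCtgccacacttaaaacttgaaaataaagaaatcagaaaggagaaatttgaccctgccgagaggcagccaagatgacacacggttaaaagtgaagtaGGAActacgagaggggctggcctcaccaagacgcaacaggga
Emcn: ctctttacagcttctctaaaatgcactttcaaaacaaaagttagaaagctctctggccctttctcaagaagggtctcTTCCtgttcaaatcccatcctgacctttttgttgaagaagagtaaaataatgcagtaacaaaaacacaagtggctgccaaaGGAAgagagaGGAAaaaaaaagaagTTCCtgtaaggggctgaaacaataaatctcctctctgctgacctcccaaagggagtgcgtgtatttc
The *Cldn5* stretch held 0 matches to GGAA and 2 to CCAAT, the *Cd34* stretch held 5 and 0, and the *Emcn* stretch held 4 and 0, counted on both strands. Of 32851 RefSeq promoters of the same length, 93.4% held at least 1 GGAA on either strand, with a median of 3, and 33.8% held CCAAT. The letters of these motifs overlap in ATTGGAA. The GC content was 59.6% for *Cldn5*, 46.4% for *Cd34*, and 40.8% for *Emcn*. A match is a description of letters only, and the lack of one in this window says nothing about any factor.

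Over the 6 libraries, the endothelial genes covered a wide range of levels. FPKM is scaled for transcript length, so levels of different genes can be set side by side. The mean FPKM was 227 for *Cd34*, 169 for *Pecam1*, 82.1 for *Vwf*, 69.3 for *Cdh5*, 28.8 for *Esam*, 25.2 for *Cldn5*, 24.7 for *Erg*, 22.8 for *Emcn*, 7.52 for *Sox18*, and 2.99 for *Sox17*. *Pecam1* was higher than *Vwf*, and *Emcn* higher than *Sox18*, in 6 of 6 libraries (p = 0.03125 for each, exact two-sided sign-flip permutation test, the smallest p that 6 libraries allow, and 0.113 after adjustment over the 9 neighbouring pairs). None of the 9 neighbouring pairs in this order had an adjusted p under 0.05, and the means pool both groups. *Cldn5* was below *Esam* in all 3 WT libraries and above it in all 3 KO libraries. All 10 genes were above 1 FPKM in all 6 libraries, so that the DA libraries of both groups held endothelial RNA.

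**Figure D1:**
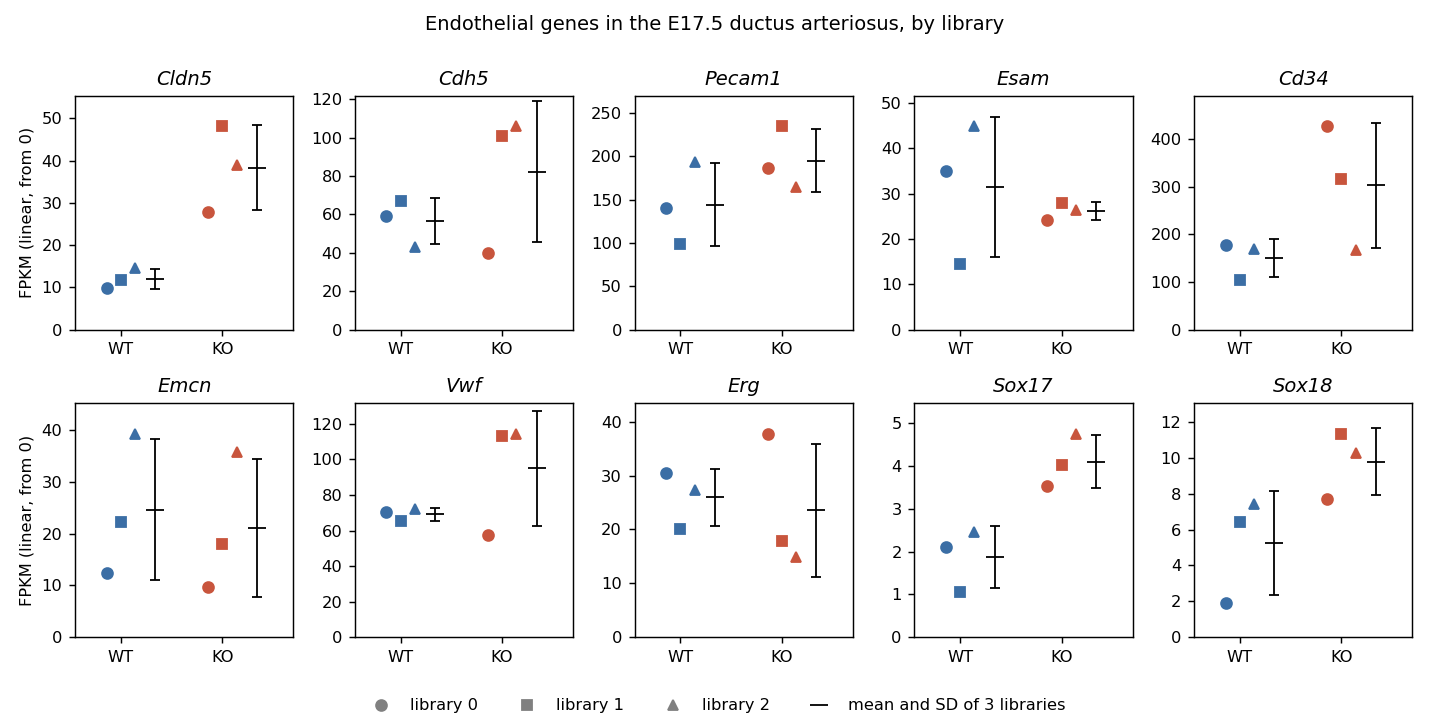
FPKM of the 10 endothelial genes in each library, on linear axes that start at 0. Circles, squares, and triangles are libraries 0, 1, and 2 of WT (blue) and KO (red), and the black mark with bars is the mean and SD of the 3 libraries. The WT and KO points do not overlap for *Cldn5*, *Sox17*, and *Sox18*, and they overlap for the other 7 genes.

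*Cldn5* encodes claudin-5, the main claudin strand protein of endothelial tight junctions. It is a gene of 1416 exonic bases on chromosome 16 (18776847 to 18778262, GRCm38, plus strand). In the order of libraries 0, 1, and 2, which is kept throughout, it was at 9.91, 11.6, and 14.6 FPKM in WT and 27.9, 48.2, and 39.0 in KO. The lowest KO library was above the highest WT library, and the means were 12.1 ± 2.38 and 38.3 ± 10.2 (SD, n = 3 each). The log2 difference, KO minus WT, was 1.64 (SE 0.27), which was the highest of the 10 genes. Leaving out 1 library at a time gave between 1.46 and 1.86.

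The other junction genes among the 10, *Cdh5*, *Pecam1*, and *Esam*, did not show this separation. Outside the 10, the junction genes *F11r*, *Jam3*, and *Cldn12* did, as described below. *Cdh5*, which encodes VE-cadherin of the endothelial adherens junction, was at 59.3, 66.7, and 43.2 FPKM in WT and 39.9, 101, and 106 in KO. KO library 0 was the lowest of all 6 and the other KO libraries were the highest, so the groups overlapped, with a log2 difference of 0.44 (SE 0.38). Without KO library 0 this difference was 0.90, and without KO library 2 it was 0.19. *Pecam1*, the homophilic adhesion protein CD31 of endothelial contacts, platelets, and leukocytes, was at 140, 98.2, and 194 FPKM in WT and 186, 235, and 164 in KO. WT library 2 lay above 2 of the KO libraries, and the log2 difference was 0.48 (SE 0.27). *Esam*, an immunoglobulin-family adhesion protein of endothelial tight junctions and platelets, was at 34.9, 14.5, and 44.9 FPKM in WT and 24.1, 27.9, and 26.3 in KO. All 3 KO values lay inside the WT range, and the log2 difference of -0.12 (SE 0.40) became -0.60 without WT library 1 and 0.21 without WT library 2.

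*Cd34* and *Emcn* encode surface sialomucins. *Cd34*, carried by endothelial cells, haematopoietic progenitors, and adventitial fibroblasts, was at 178, 103, and 169 FPKM in WT and 427, 317, and 166 in KO. KO libraries 0 and 1 were the highest of the 6, while KO library 2 lay between the WT libraries, so the groups overlapped. The log2 difference of *Cd34* was 0.95 (SE 0.37), with 0.65 without KO library 0 and 1.33 without KO library 2. *Emcn*, the endomucin of veins and capillaries, was at 12.3, 22.3, and 39.3 FPKM in WT and 9.64, 17.9, and 35.7 in KO. The WT and KO values of *Emcn* interleaved, and its log2 difference of -0.27 (SE 0.56) was -0.74 without KO library 2 and 0.19 without KO library 0. *Vwf*, the clotting protein stored in endothelial cells and platelets, was at 70.5, 65.1, and 72.1 FPKM in WT and 57.5, 113, and 114 in KO. As with *Cdh5*, KO library 0 was the lowest and the other KO libraries the highest of the 6, and the log2 difference was 0.39 (SE 0.28), or 0.72 without KO library 0.

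The transcription factors differed among themselves. *Erg*, an ETS factor of endothelial identity, was at 30.4, 20.1, and 27.3 FPKM in WT and 37.8, 17.9, and 14.9 in KO. KO library 0 was the highest and the other KO libraries were the lowest, the reverse of *Cdh5* and *Vwf*, with a log2 difference of -0.24 (SE 0.37) that was 0.022 without KO library 2. *Sox17*, a SOXF factor of arterial endothelium, was at 2.11, 1.05, and 2.47 FPKM in WT and 3.53, 4.03, and 4.76 in KO. *Sox18*, a SOXF factor of vascular and lymphatic development, was at 1.93, 6.41, and 7.43 FPKM in WT and 7.71, 11.3, and 10.3 in KO. For both SOXF genes every KO library was above every WT library, although for *Sox18* the gap between WT library 2 and KO library 0 was small. The log2 difference was 1.16 (SE 0.57) for *Sox17* and 1.08 (SE 0.54) for *Sox18*, and that of *Sox18* was 0.48 without WT library 0. The exons of *Sox17* overlap those of *Gm37587*, an antisense transcript, by 804 bases, and whether the counting used strand is not stated.

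**Figure D2:**
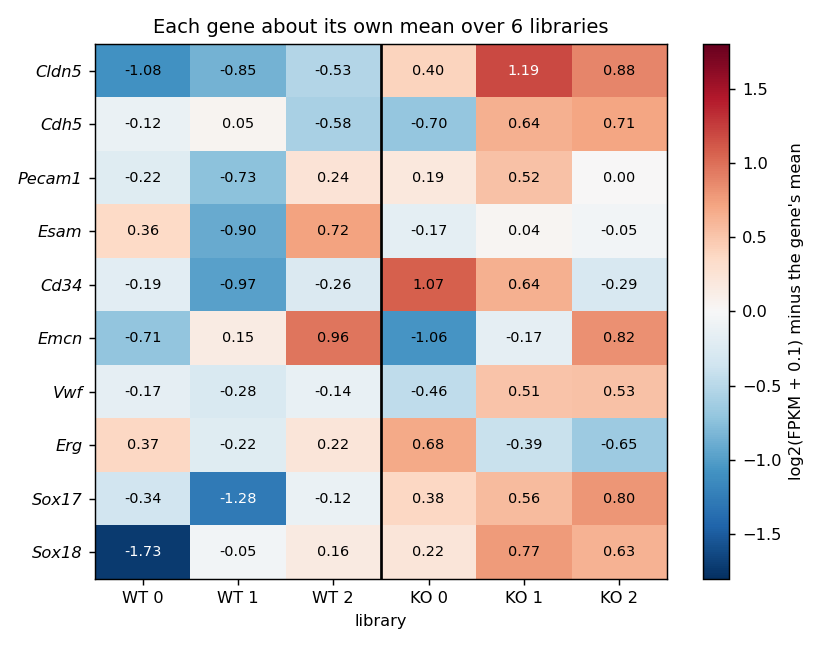
Each cell gives log2(FPKM + 0.1) of a gene in a library minus that gene's mean over the 6 libraries, with WT left of the black line and KO right of it. The rows of *Cldn5*, *Sox17*, and *Sox18* have lower values in every WT library than in any KO library, and KO library 0 has -0.70 for *Cdh5*, -0.46 for *Vwf*, and -1.06 for *Emcn* but 1.07 for *Cd34* and 0.68 for *Erg*.

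Across the 10 genes, the log2 difference was positive for 7 and negative for 3, with a median of 0.46, and all were among the 12955 genes that averaged 1 FPKM or more over the 6 libraries and so entered the fit. The median over all 12955 genes was 0.07, and the median SE was 0.41. For 3 of the 10 the groups did not overlap with KO higher, against 8.21% of all genes, and for 0 of the 10 with KO lower, against 7.84%. With limma and Benjamini-Hochberg adjustment over all genes, 0 of the 10 had an adjusted p under 0.05, against 0.00772% of all genes, which is 1 gene, and 2 of the 10 had an unadjusted p under 0.05, against 8.28%. Since the same contrast took part in the choice of the genes, nothing is read from any of these counts or shares. The number of the 10 genes whose groups did not overlap with KO higher was 4 without WT library 2 (*Pecam1* added), 4 without KO library 2 (*Cd34* added), and 5 without KO library 0 (*Cdh5* and *Vwf* added). These counts stand beside 12.9%, 13.2%, and 14.7% of all genes with the same libraries left out. With KO lower, the groups were apart for 1 gene without KO library 0 (*Erg*) and for 1 without WT library 1 (*Esam*), beside 12.1% and 13.6% of all genes. Without WT library 1 and KO library 2, the pair highest in heart muscle transcripts, 4 were apart with KO higher (*Cd34* added), beside 20.1%. In the same setting 1 was apart with KO lower (*Esam*), beside 17.9%.

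**Figure D3:**
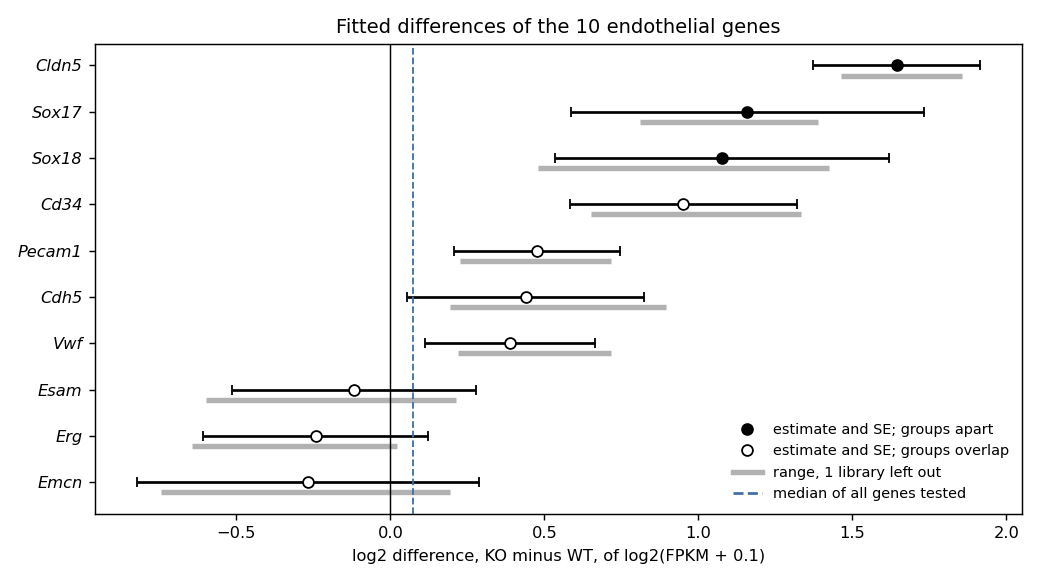
Log2 difference, KO minus WT, of each gene from the limma fit on log2(FPKM + 0.1), with SE as bars. Filled points are genes whose groups did not overlap, grey bars span the values with 1 library left out, and the dashed line is the median of all 12955 genes at 0.07. *Cldn5* lies highest at 1.64, and *Esam*, *Erg*, and *Emcn* lie below 0 with grey bars that cross it.

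To ask whether *Cldn5* and *Cd34* followed the general endothelial genes, each was set against the other 8 genes (*Cdh5*, *Pecam1*, *Esam*, *Emcn*, *Vwf*, *Erg*, *Sox17*, and *Sox18*) within the same library. The mean log2(FPKM + 0.1) of these 8 was 4.52 ± 0.32 in WT and 4.88 ± 0.26 in KO (SD, n = 3 each), a difference of 0.36 with overlapping groups. *Cldn5* minus this mean was -1.05, -0.74, and -1.0 in the WT libraries and 0.22, 0.58, and 0.24 in the KO libraries. *Cldn5* therefore lay below the mean of the 8 in every WT library and above it in every KO library, with a difference of 1.28 between the groups, and between 1.16 and 1.38 with 1 library left out. *Cd34* minus the same mean was 3.10, 2.41, and 2.52 in WT and 4.16, 3.30, and 2.33 in KO. The highest *Cd34* value was in KO library 0 and the lowest in KO library 2, so that the groups overlapped. Its difference of 0.59 was 0.14 without KO library 0 and 1.05 without KO library 2.

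**Figure D4:**
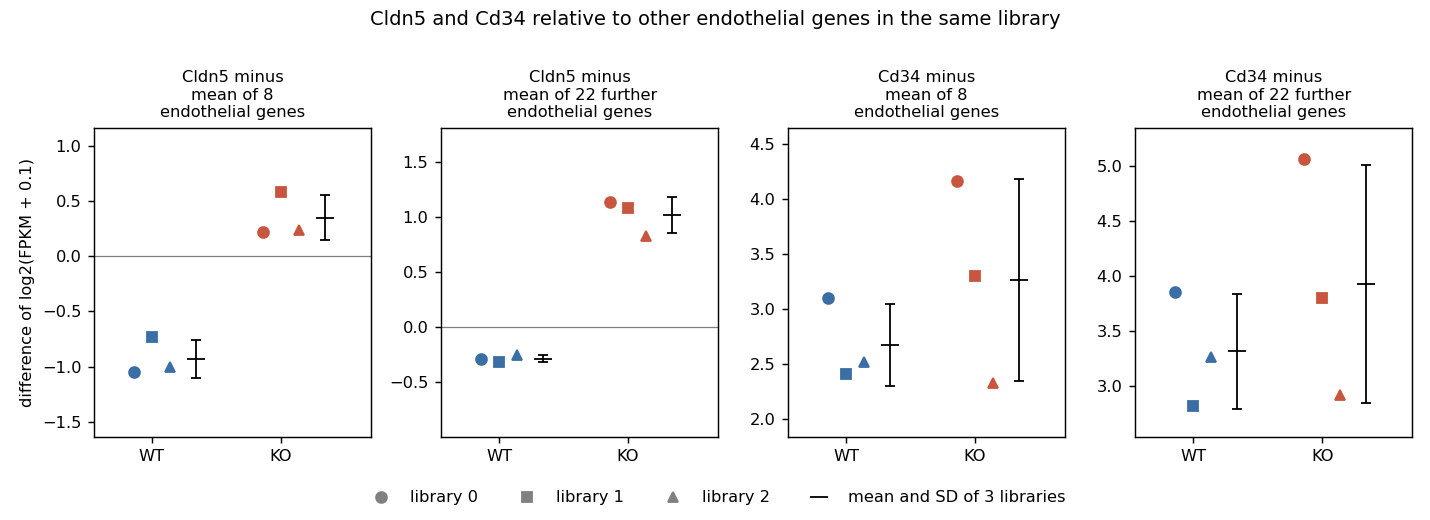
Log2(FPKM + 0.1) of *Cldn5* (left pair of panels) and *Cd34* (right pair) minus the mean of the other 8 genes, or of 22 further endothelial genes, in the same library. Symbols are single libraries, black marks are the mean and SD of 3, and all panels have the same span. The *Cldn5* values of WT and KO are apart in both panels, by 1.28 and 1.30 on average, whereas those of *Cd34* overlap in both.

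The same comparison was made with 22 genes expressed in most endothelial cells, a list that holds none of the 10. *Cldn5* minus the mean of these 22 was -0.29 ± 0.03 in WT and 1.02 ± 0.16 in KO (SD, n = 3 each), a difference of 1.30. The 3 WT values lay within -0.32 to -0.25, and the KO values were 1.13, 1.08, and 0.83. *Cd34* minus the 22 was 3.32 ± 0.52 in WT and 3.93 ± 1.08 in KO, a difference of 0.61 with overlapping groups. When each of the 8 was set against the remaining 7, the groups were apart for *Sox17*, with a difference of 0.91, and overlapped for the other 7, whose differences ran from -0.72 for *Emcn* to 0.81 for *Sox18*.

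Ratios of *Cldn5* to *Cdh5*, *Pecam1*, and *Esam*, and of *Cd34* to *Pecam1* and *Cdh5*, gave the same split. Ratios of *Cldn5* to *Sox17* and *Sox18*, whose groups were also apart with KO higher, were not taken. Whether *Cldn5* was apart from these SOXF genes was therefore not tested. The ratio of *Cldn5* to *Cdh5* was 0.167, 0.174, and 0.338 in WT and 0.699, 0.477, and 0.368 in KO. The ratio of *Cldn5* to *Pecam1* was 0.0708, 0.118, and 0.0755 in WT and 0.150, 0.205, and 0.238 in KO, and the ratio to *Esam* also had every KO library above every WT library. For *Cd34*, the ratio to *Pecam1* was 1.27, 1.05, and 0.874 in WT and 2.29, 1.35, and 1.01 in KO, with KO library 2 inside the WT range. The ratio of *Cd34* to *Cdh5* ran from 1.55 to 3.91 in WT and from 1.57 to 10.7 in KO. The ratio of *Cldn5* to *Cd34* overlapped between the groups, at 0.0558, 0.112, and 0.0864 in WT and 0.0653, 0.152, and 0.235 in KO. The FPKM of the whole table cancels in such ratios, so no scaling of a library changes them.

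Within the groups, *Cldn5* and *Cd34* also went different ways. After the mean of each group was removed, the deviations of *Cldn5* over the 6 libraries had Pearson r = 0.84 with those of the mean of the 8 and 0.95 with those of the mean of the 22, while those of *Cd34* had r = -0.20 and -0.54. These are descriptions over 6 points that share their libraries, with 4 degrees of freedom left. For a gene that is itself among the 8, the mean of the 8 was taken without that gene. *Vwf* (0.59 and 0.88) and *Emcn* (0.61 and 0.86) moved with both means, and *Erg* (-0.61 and -0.83) moved against them. *Erg* and *Cd34* deviated together (r = 0.87), as did *Cdh5* and *Vwf* (r = 0.88) and *Esam* and *Sox17* (r = 0.96), whereas *Cdh5* and *Erg* were opposed (r = -0.92). Among the 28 pairs of the 8 genes r ran from -0.92 to 0.96, and the pairs just named include these extremes. The median r was 0.18, and 19 pairs were positive, so that in these 6 libraries the 8 did not vary as 1 block. How far noise in the low genes lowered r was not tested.

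Genes that averaged 5 FPKM or more were ranked by the Pearson r of log2(FPKM + 0.1) with each profile over the 6 libraries, group difference included. Among the 5 most like *Cldn5* were *Cd82*, *Tmem80*, *Cul4b*, and *Map3k4*, with r between 0.963 and 0.983 among 9121 genes. *Cd82*, a tetraspanin, was at 15.1, 19.7, and 25.3 FPKM in WT and 34.9, 70.9, and 48.3 in KO, with all KO libraries above all WT libraries. Of the 10 genes of a Schwann cell list, 9 had a positive log2 difference, and the summed FPKM of the list lay between 20.3 and 49.6 in WT and between 53.1 and 200.1 in KO. The part of Schwann cell RNA in the *Cldn5* values was not tested. The 5 most like *Cd34* were *Gm16897*, *Dennd3*, *Tsn*, *Actr2*, and *Dennd4a*, with r between 0.981 and 0.993. *Gm16897* is an antisense gene on the minus strand of chromosome 1 (194955759 to 194976960, GRCm38) whose exons overlap those of *Cd34* (194938819 to 194961279, plus strand) by 148 bases. Its FPKM was 3.34, 1.82, and 4.02 in WT and 14.3, 9.57, and 3.41 in KO, with the highest value in KO library 0 as for *Cd34*, and without strand in the counting the reads of the overlap cannot be told apart. The 5 most like the mean of the 8 were *Jade1*, *C130074G19Rik*, *Acer2*, *Rufy2*, and *Map2k5*, with r between 0.974 and 0.991 among 9115 genes. In that ranking *Cldn5* stood at position 226 (r = 0.79) and *Cd34* at position 2113 (r = 0.32).

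Endothelial and junction genes outside the 10 were described from 9 lists that hold 112 genes, of which 95 were tested. The log2 difference was positive for 67 and negative for 28, with a median of 0.31 against 0.07 for all genes. The groups did not overlap for 16 of the 95, with KO higher for 15 (15.8% against 8.21% of all genes) and lower for 1. With limma, 0 of the 95 had an adjusted p under 0.05, and 12 had an unadjusted p under 0.05, of which 10 were higher in KO. The count of 15 with KO higher was 28 without WT library 2 and 36 without KO library 0, and lay between 15 and 18 without any other single library. The share of all genes rose with fewer libraries too, to 12.9% without WT library 2 and 14.7% without KO library 0, beside 29.8% and 37.9% of the lists. Without any other single library it lay between 12.6% and 15.3%, beside 15.8% to 18.9% of the lists. Without WT library 1 and KO library 2 the count was 16 (16.8%), below the 20.1% of all genes, and that with KO lower was 10 in place of 1. The genes named below follow a rule of high level or large difference within a list, except *Cd93*, *S1pr1*, *She*, *Fli1*, *Mef2c*, *Jam3*, and *Gja5*, which were chosen after their values were seen because their groups did not overlap.

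**Figure D5:**
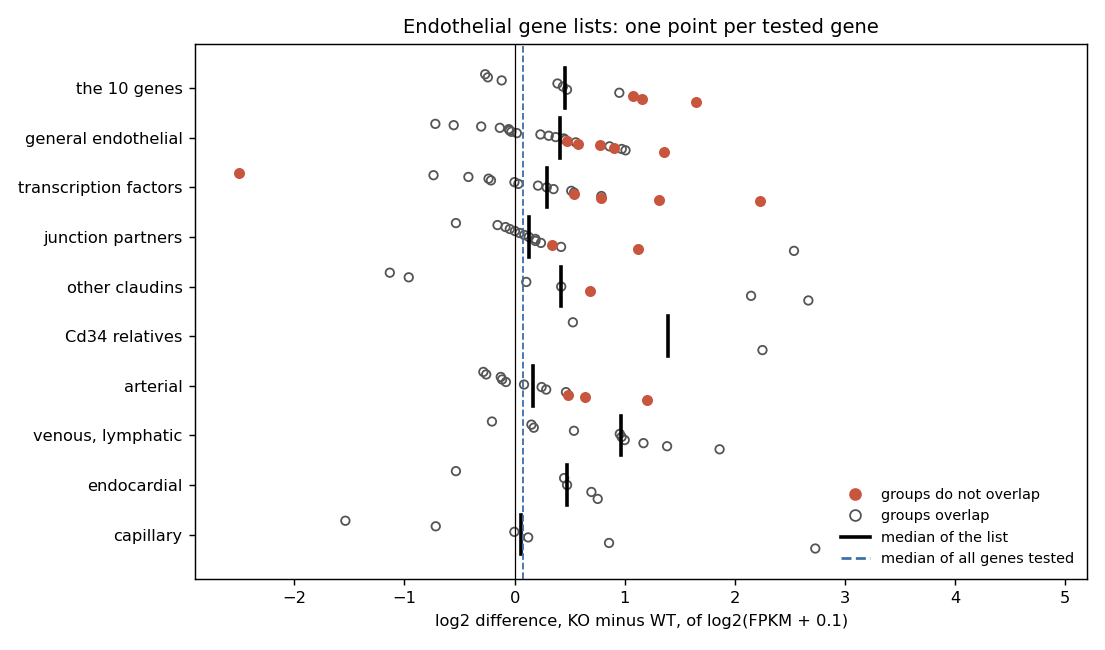
Log2 difference, KO minus WT, of the 10 genes and of the tested genes of 9 further endothelial and junction lists, 1 point per gene. Red points are genes whose groups did not overlap, thick bars are list medians, and the dashed line is the median of all genes at 0.07. The list of the 10 genes has its median at 0.46, the 22 general endothelial genes at 0.41, and the venous and lymphatic genes at 0.96 with no red point.

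The general endothelial list had 15 of 22 genes positive with a median of 0.41. The groups did not overlap for 5, all with KO higher, beside 8.21% of all genes. *Arhgef15*, a guanine nucleotide exchange factor of endothelial cells, was at 2.84, 4.19, and 4.60 FPKM in WT and 6.50 and 8.49 in KO libraries 0 and 2, with KO library 1 higher still (log2 difference 1.36, SE 0.47, adjusted p = 0.552 by limma). *Tek*, the angiopoietin receptor Tie2, was at 56.6, 35.0, and 58.5 FPKM in WT and 62.9, 74.7, and 66.2 in KO, with a log2 difference of 0.47 (SE 0.23). The other 3 were *Cd93*, *S1pr1*, and *She*, with log2 differences of 0.78, 0.57, and 0.90. In the same list *Plvap*, the diaphragm protein of fenestrated endothelium, had a log2 difference of -0.72 (SE 0.60), and *Eng*, a TGF-beta coreceptor, of -0.55 (SE 0.33), both with overlapping groups. *Cldn5*, *Sox17*, and *Sox18* thus stood beside general endothelial genes that were also apart and others that were not.

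Among 17 further transcription factors, the groups did not overlap with KO higher for 4 and lower for 1, beside 8.21% and 7.84% of all genes. *Ets1*, an ETS factor like *Erg*, was at 12.0, 12.5, and 7.90 FPKM in WT and 28.5, 30.3, and 21.4 in KO (log2 difference 1.31, SE 0.27, adjusted p = 0.407 by limma), whereas *Erg* itself overlapped. *Sox7*, the remaining SOXF gene, was at 5.43, 3.89, and 0.354 FPKM in WT and 6.65, 13.8, and 10.8 in KO. Its log2 difference was 2.22 (SE 0.93, adjusted p = 0.598 by limma). All 3 SOXF genes thus had every KO library above every WT library, but *Sox17* and *Sox18* were chosen with this contrast known. *Fli1* and *Mef2c* had log2 differences of 0.79 and 0.54. *Foxf1*, a forkhead factor of lung and visceral mesenchyme and endothelium, was at 16.4, 11.9, and 2.05 FPKM in WT and 1.11, 2.01, and 0.811 in KO.

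Junction genes that are not restricted to endothelium had a median of 0.13 over 15 tested. *Ctnna1* and *Ctnnb1*, catenins of the adherens junction, had log2 differences of 0.003 (SE 0.14) and 0.13 (SE 0.24), both with overlapping groups. *F11r*, the junctional adhesion molecule JAM-A, was at 16.8, 11.6, and 7.12 FPKM in WT and 21.3, 26.6, and 25.5 in KO (log2 difference 1.12, SE 0.33, adjusted p = 0.535 by limma), and *Jam3* had a difference of 0.34, also with groups apart. Of 19 other claudins, 7 were tested, and none had a mean FPKM above the 4.94 of *Cldn15*, against 25.2 for *Cldn5*. *Cldn12* was at 3.05, 3.45, and 3.21 FPKM in WT and 4.60, 5.22, and 6.09 in KO (log2 difference 0.69, SE 0.41), and the other 6 tested claudins overlapped. *Podxl* and *Podxl2*, the sialomucin relatives of *Cd34*, had overlapping groups, with log2 differences of 0.53 (SE 0.49) and 2.25 (SE 1.53).

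Genes that mark a type of vessel were described next. Of 12 arterial genes, 3 had every KO library above every WT library, beside 8.21% of all genes. *Gja4*, the arterial connexin 37, was at 19.9, 22.8, and 17.9 FPKM in WT and 55.8, 63.0, and 28.4 in KO (log2 difference 1.20, SE 0.31, adjusted p = 0.476 by limma), and the others were *Gja5* and the Notch ligand *Jag2*, at 0.48 and 0.64. *Efnb2* and *Nrp1*, an ephrin ligand and a VEGF coreceptor with the highest mean FPKM of that list, had log2 differences of -0.13 and 0.24 with overlapping groups. Of 10 venous and lymphatic genes 9 were positive with a median of 0.96, yet none had groups apart. *Mmrn1*, a secreted protein of lymphatic endothelium, was at 3.29, 12.0, and 29.7 FPKM in WT and 5.06, 80.4, and 52.1 in KO, and *Lyve1*, the lymphatic hyaluronan receptor, at 8.41, 27.2, and 54.4 and 7.06, 59.2, and 42.7. Both were lowest in WT library 0 and KO library 0, where *Emcn* was lowest too. The medians were 0.48 over 5 endocardial genes and 0.06 over 6 capillary genes. *Fabp4*, the fatty acid binding protein of capillary endothelium and adipocytes, had the most negative difference of the capillary list (-1.54, SE 0.61), at 63.1, 47.0, and 117 FPKM in WT and 9.10, 32.6, and 47.3 in KO, where KO library 2 reached the lowest WT value.

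Cells other than endothelium also carry some of the 10 genes, and their marker lists are given beside them. For *Vwf*, *Pecam1*, and *Esam*, 5 of 8 tested platelet and megakaryocyte genes were positive, and the summed FPKM of the list was 37.7 to 52.7 in WT and 42.0 to 92.5 in KO. The integrin *Itga2b* of that list was at 1.7, 5.58, and 4.36 FPKM in WT and 5.39, 16.7, and 12.2 in KO. It was highest in the KO libraries 1 and 2, as were *Vwf* and *Cdh5*. Not every gene of the list had this order. In KO library 1 *Gp9* was listed at 0 and *Ppbp* was at 0.07 FPKM. For *Pecam1*, 5 of 10 tested leukocyte genes were positive, with sums of 32.6 to 232 in WT and 50.5 to 261 in KO. For *Cd34*, 4 of 10 fibroblast genes of the adventitia were positive, with sums of 690 to 1349 in WT and 510 to 1206 in KO, and 3 of 5 tested haematopoietic progenitor genes, with sums of 11.1 to 18.3 and 5.56 to 25.6. Within the fibroblast list *Lum* was apart upwards, with a log2 difference of 1.16, and *Ly6a* and *Pi16* were apart downwards, with -3.72 and -1.85. *Ly6a* was at 11.8, 1.38, and 18.9 FPKM in WT, was listed at 0 in KO library 0, and was at 1.16 and 1.07 in KO libraries 1 and 2. Among progenitor genes *Cd48* was listed at 0 in all WT libraries and was at 0.850, 6.38, and 1.72 FPKM in KO. For *Cldn5*, which lung epithelium also makes, *Sftpc* of the alveolus was listed at 0 in WT libraries 0 and 2 and KO library 2 and was at 0.978 in WT library 1 and 6.71 and 3.69 in KO libraries 0 and 1. The whole epithelial and mesothelial list had 6 of 8 tested genes positive, with sums of 68.4 to 235 in WT and 91.8 to 186 in KO. All 8 tested erythroid genes were positive with a median of 1.36, and their list summed to 3866, 7590, and 4354 FPKM in WT and 12658, 24373, and 4290 in KO, highest in KO libraries 0 and 1, where *Cd34* was highest too. The part of these cells in the values of the 10 genes was not tested.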

How the data were processed

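RNA of the mouse DA at E17.5 was sequenced in 3 libraries titled WT and 3 titled KO. The authors used TopHat2 to align trimmed reads to mm10 and Cufflinks to compute the deposited FPKM values (fragments divided by transcript length and by library size), 1 per gene and library. Versions, annotation, strand setting, and scaling between libraries are not given in the sources used here. FPKM values hold no counts, so the depth is unknown, no counting interval was given, and the Cuffdiff test of the methods, which needs aligned reads, was not repeated. An exact 0 may be a failed estimate, since 34 to 61 of the 3506 genes with a mean of at least 20 were listed at 0 in any one library.

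Values of log2(FPKM + 0.1) were fitted with limma 3.58.1 (R 4.3.3; lmFit, eBayes with trend) for the 12955 genes that averaged 1 FPKM or more, two-sided, with Benjamini-Hochberg adjustment at 0.05. This scale understates the change of low genes. The limma p-values set the group difference against the spread between these libraries, which the fit shares across genes. With 3 against 3 no exact permutation p can fall under 0.1. The fit was tested on simulated data. Levels of neighbouring genes were compared with exact sign-flip permutation tests in scipy 1.17.1. Gene positions came from GENCODE vM21 on GRCm38, the assembly of mm10, and promoter sequence from RefSeq.

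The 10 genes, the further gene lists, and the tests were chosen with earlier results of these data known. All 10 genes are named. Of each other list, genes were named where they were among the 3 with the highest mean FPKM, the 2 largest rises, or the 2 largest falls, and for 3 profiles the 5 most correlated genes were named. Some genes that this rule would name are not reported here. The omission of the 2 libraries highest in heart muscle transcripts was chosen after seeing the data. Alternatives covered the filter, the pseudocount, quantile and median scaling, the variance trend, a replicate block, and each library left out.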

Additional observations from a re-analysis of the deposited data

How the results depend on the processing

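No alternative brought any of the 10 genes past the adjusted threshold of 0.05. The log2 difference of *Cldn5* lay between 1.46 and 1.86, and that of *Cldn5* against the other 8 genes between 1.16 and 1.43. The differences of *Esam* and *Emcn* changed sign under 2 alternatives each and that of *Erg* under 1, each time with a library left out, and the other 7 kept their sign. The median over the 10 genes ran from 0.28 to 0.68. *Cd34* against the other 8 genes ran from 0.14 to 1.05. *Sox17* was not tested when a mean of 5 FPKM was required.

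The number of all genes past the threshold was 1 in the reported fit and 2 without the mean-variance trend. It was 3 without WT library 1 and KO library 2, which were highest in heart muscle transcripts (chosen after seeing the data). With 1 library left out it was between 1 and 3, with 3 without WT library 1, KO library 0, or KO library 2. The number of the 10 genes with KO higher and no overlap was between 3 and 5 with 1 library left out. The share of all genes in these settings was between 12.6% and 15.3%. The cause was not tested. Whether the library numbers 0, 1, and 2 pair the libraries is not stated. After removing group means, same-numbered libraries correlated at 0.12, -0.08, and -0.009 across genes. Libraries of unlike number correlated between -0.12 and 0.14. Such values cannot exclude a pairing that acts on some genes. With a replicate block the SE of *Emcn* was 0.23 in place of 0.56. That of *Pecam1* was 0.29 in place of 0.27, and that of *Sox17* 0.67 in place of 0.57. A fit with the replicate block called 1 gene, as without it, and 0 of the 10. The depth is unknown, and the SE of *Sox17*, *Emcn*, and *Sox18* was the largest of the 10 in the reported fit.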
